A study of Mus musculus with 12 samples.

Results

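The ileum of mice given a high-fat diet with a sugar drink (HF-Sugar) was compared with that of mice given a normal-fat diet with the same drink (NF-Sugar), so that fat differed and the drink did not. The comparison took the 3 HF-Sugar and the 3 NF-Sugar libraries, 6 of the 12 in the series, and all of their genes. All mice were C57BL/6, were 16 weeks old and had been on their diet for 10 weeks from the age of 6 weeks. The high-fat diet supplied 60% of energy as fat, and the drink held sugar at 23% (w/v). Each library came from the ileum tissue of 1 mouse, so the replicates are separate animals, and 3 mice per group were drawn at random from those with intact RNA. The other 6 libraries came from mice on the high-fat diet with plain water (HF) and on the normal-fat diet with plain water (NF). They entered the model to share the estimate of spread. The series was made to find transcripts that respond to the diet.

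The ileum is the last part of the small intestine. Its enterocytes take up what remains of fat and sugar and recover bile acids, its Paneth and goblet cells secrete antimicrobial proteins and mucus, and its wall holds one of the largest lymphocyte populations of the body. Dietary fat is packed into chylomicrons in enterocytes or burned in their mitochondria under PPAR-alpha, and sucrose is cleaved at the brush border into glucose and fructose. Interleukin-1 beta, interferon gamma and the chemokines that call in leukocytes are the classical messengers of gut inflammation, and interferons raise both the interferon-response genes and the MHC molecules that present antigen.

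Levels are in RPKM, a read count divided by the exon length of the gene and by the depth of the library. Depth recovered from the steps between low values was 16.3 to 27.4 M reads in HF-Sugar and 15.3 to 23.8 M in NF-Sugar libraries, of which 73.0% to 77.7% and 73.6% to 79.2% fell in genes. HF-Sugar replicate 2 and NF-Sugar replicate 1 stood apart from the other 4 libraries on the first principal component of all 12 libraries (40.1% of the variance), as did 1 library in each of the water groups. Gut epithelial identity was plain in all 6 libraries, with Vil1 at 328.1 to 529.8 RPKM and Epcam at 724.0 to 899.3 RPKM.

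No gene passed in HF-Sugar against NF-Sugar. Of 17662 genes tested with limma, 0 (0%) had a Benjamini-Hochberg adjusted p under 0.05, and limma-voom on recovered reads also called 0. At an unadjusted p under 0.05, 168 genes (0.951%) were higher and 135 (0.764%) lower, 303 in all (1.72%), and 204 in limma-voom, where chance alone would give about 883.1. Log2 differences had a median SE of 0.18 and a median of -0.01 over all genes. With values scaled between libraries, 513 genes (2.9%) lay higher in all 3 HF-Sugar libraries than in any NF-Sugar library and 500 (2.83%) lay lower. In RPKM as deposited the split was 758 (4.29%) higher and 290 (1.64%) lower. Differences given below are on the scale of log2(RPKM + 1) after scaling, HF-Sugar minus NF-Sugar, while levels are RPKM as deposited. This scale understates the change of genes of low level.

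**Figure D1:**
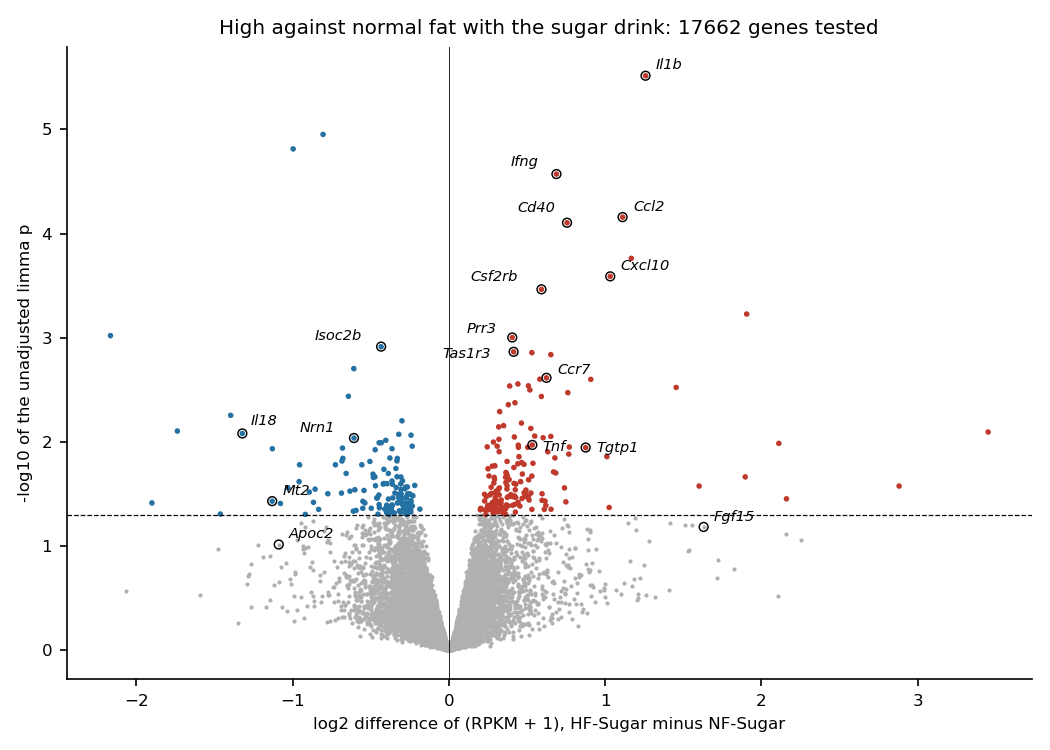
Each point is 1 of 17662 genes, with the log2 difference of (RPKM + 1), HF-Sugar minus NF-Sugar, on the horizontal axis and -log10 of the unadjusted limma p on the vertical axis. Red (168 higher) and blue (135 lower) points lie above the dashed line at p of 0.05, circled genes are named, and Il1b stands highest.

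Messengers of inflammation led the ordering by p. An adjusted p under 0.25 was reached in limma by 6 genes, and 4 of them were the cytokine and receptor genes Il1b, Ifng, Ccl2 and Cd40, all higher in HF-Sugar. The other two, chosen for mention after their values were seen, were lower: the pseudogene Gm6637 and the kappa light chain segment Igkv8-18. Il1b encodes interleukin-1 beta, made by activated myeloid cells (chr2:129364570-129371139, minus strand, build GRCm38). It read 2.88, 2.71 and 2.96 RPKM in HF-Sugar, against 0.353, 0.623 and 0.79 RPKM in NF-Sugar. The HF-Sugar libraries lay close together and far above the others, for a difference of 1.26 ± 0.14 (SE) and a limma adjusted p of 0.0539. Over the alternative settings in which it was tested, that adjusted p ranged from 0.00692 to 1. The exact two-sided permutation test gave 0.1, the smallest p it can give for 3 against 3 libraries, for this gene and for every other gene named below whose groups do not overlap in RPKM as deposited.

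Ifng encodes interferon gamma, the product of activated T and natural killer cells (chr10:118441046-118445892, plus strand). It was scarce, at 0.773, 0.528 and 0.732 RPKM in HF-Sugar and 0, 0.0382 and 0.0506 RPKM in NF-Sugar. The groups did not overlap, and the difference was 0.69 ± 0.10 (limma adjusted p = 0.118, from 0.0235 to 1 over the alternatives). Ccl2, the chemokine that draws monocytes (chr11:82035571-82037453, plus strand), read 1.95, 1.93 and 1.13 RPKM in HF-Sugar and 0, 0.261 and 0.403 RPKM in NF-Sugar. These values stood for 50, 60 and 21 reads in HF-Sugar and 0, 6 and 7 reads in NF-Sugar, so the NF-Sugar levels rest on few reads. The difference was 1.11 ± 0.17 (limma adjusted p = 0.231, from 0.0673 to 1). Cxcl10, an interferon-induced chemokine for T cells, read 3.83, 2.28 and 4.01 RPKM in HF-Sugar and 0.728, 1.16 and 1.31 RPKM in NF-Sugar, again without overlap, with a difference of 1.03 ± 0.19 (limma adjusted p = 0.568). Tnf, tumor necrosis factor, read 1.93, 0.746 and 0.912 RPKM in HF-Sugar and 0.385, 0.544 and 0.44 RPKM in NF-Sugar, and HF-Sugar replicate 1 held the highest value by far. For Cxcl9, which like Cxcl10 follows interferon gamma, the groups overlapped: 2.49, 1.67 and 5.03 RPKM in HF-Sugar, against 0.53, 0.558 and 4.54 RPKM in NF-Sugar.

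Il18 went the other way. It encodes interleukin-18, a cytokine of the interleukin-1 family that gut epithelium makes at a steady level (chr9:50554827-50581840, plus strand). It read 2.8, 8.99 and 3.63 RPKM in HF-Sugar and 9.58, 11.6 and 17.7 RPKM in NF-Sugar. The groups did not overlap, but the spread within each was wide, and the difference of -1.32 ± 0.41 had a limma adjusted p of 1. Of 29 listed pro-inflammatory cytokines and chemokines, 17 were expressed enough to be tested, 14 were higher and 3 lower, and the median difference was 0.45 beside -0.01 over all genes. None of them passed, 7 were higher and 1 lower at an unadjusted p under 0.05, and 7 lay higher and 1 lower without overlap. Over all genes these shares were 0.951% and 0.764% at that p and 2.9% and 2.83% without overlap. The mean over the list was 2.01 to 2.23 in HF-Sugar and 1.67 to 1.86 in NF-Sugar libraries on the log2 scale. Without genes with irregular values, described next, 12 genes of the list were left with a median of 0.28. Leaving out 1 library at a time gave a median of 0.30 to 0.54. Il6, Il17a, Il22 and Cxcl3 were too scarce to test, with at most 0.178 RPKM in any of the 6 libraries.

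**Figure D2:**
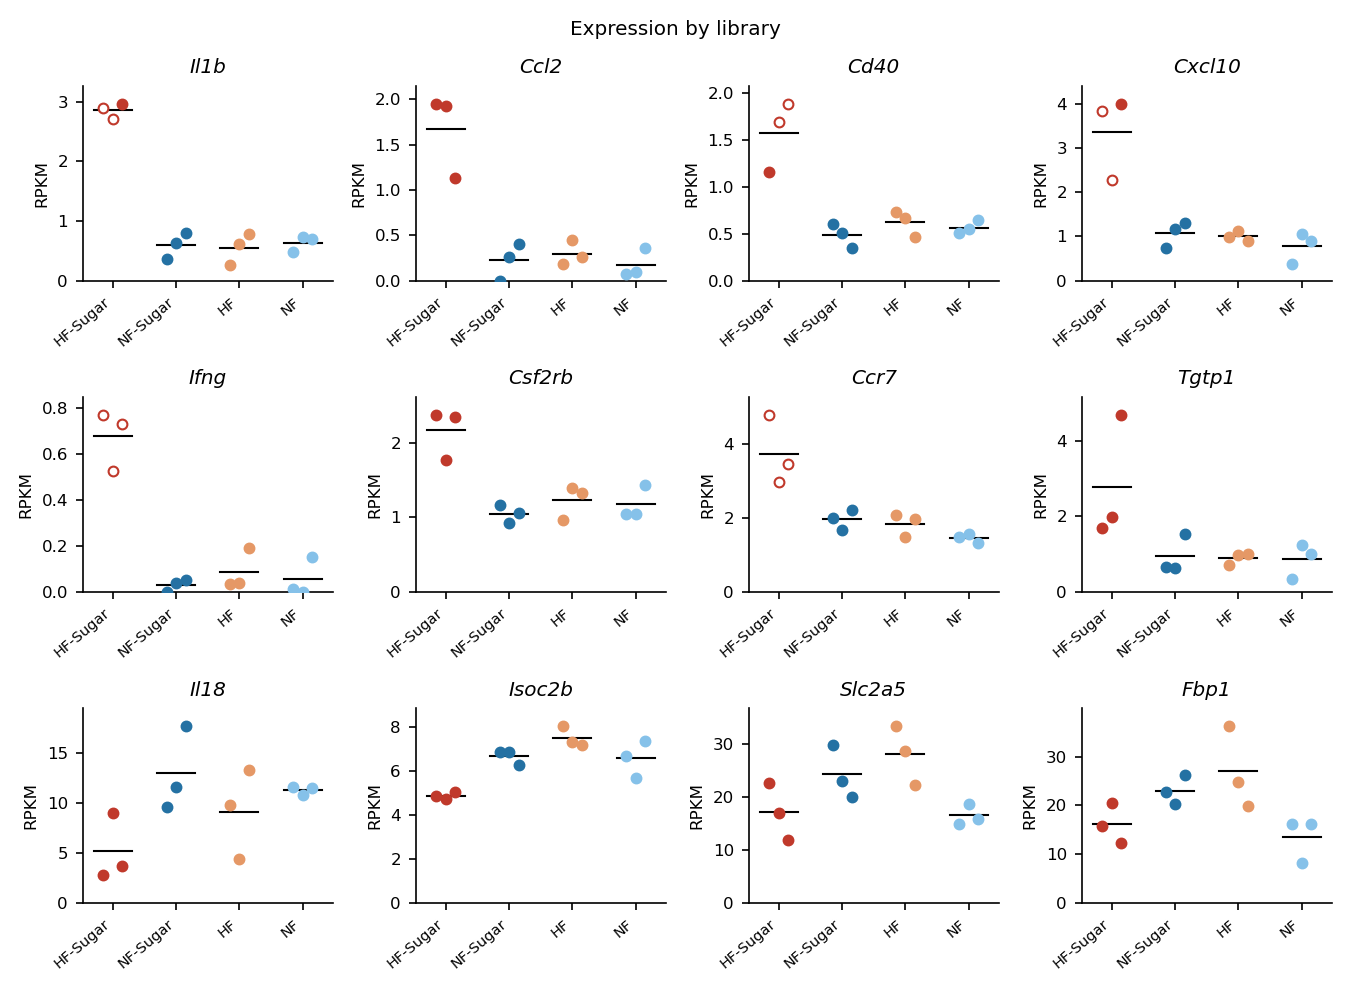
RPKM as deposited (vertical axes, from 0) of 12 genes in each library, by diet group, with 1 point per mouse and a line at each group's mean; open points are irregular values. Il1b lies at 2.71 to 2.96 RPKM in HF-Sugar and at no more than 0.79 RPKM in NF-Sugar, and Slc2a5 and Fbp1 are lower in HF-Sugar than in NF-Sugar on average, with overlap.

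Several of these values did not have the form of most low values in the table. An RPKM turned back into reads gives a whole number where each read counts for 1 gene alone. For 8111 of the 17662 tested genes the low values were whole in most libraries. Others had fractions in both groups at their annotated length. Mcat gave 230.2, 296.53 and 178.18 reads in HF-Sugar and 274.42, 352.46 and 223.7 reads in NF-Sugar. A fraction alone thus does not mark a value as changed. Il1b gave 123.92, 141.46 and 92.05 reads in HF-Sugar and 16, 24 and 23 reads in NF-Sugar. Ifng gave 22.54, 18.73 and 15.44 reads in HF-Sugar and 0, 1 and 1 reads in NF-Sugar. Tnf likewise gave 71.18, 33.47 and 24.34 reads in HF-Sugar and 15, 18 and 11 reads in NF-Sugar. Such values are called irregular here, including those written with 7 significant digits where the table otherwise has at most 6. Il1b, Cxcl10 and Cd40 had irregular values in 2 HF-Sugar libraries each. For Il1b these were replicate 2, by its fraction, and replicate 1. The latter lay within 0.1 of a whole read, and its mark rests on its 7 digits. Ifng, Tnf, Ccr7 and Tas1r3 had irregular values in all 3 HF-Sugar libraries. Among genes given below, Gcg was also marked in HF-Sugar replicate 2 and Cd8a in HF-Sugar replicate 1. All reads of Ccl2 were whole, and Csf2rb could not be checked in this way. Of 151 tested genes with irregular values in HF-Sugar but not in NF-Sugar, 16 were higher and 0 lower at an unadjusted p under 0.05. Of 133 genes with such values in NF-Sugar alone, 4 were higher and 2 lower, of 58 with such values in both groups 3 were higher and 2 lower, and of 17320 with none in either group 145 were higher and 131 lower. The last count includes genes that could not be checked. The limit of 0.1 read is absolute, so a small error of length or depth shows first where reads are many. A gene higher in HF-Sugar is thus more easily marked there, and these counts do not allow for that. The definition was widened after the values of Ifng and Tas1r3 had been seen, so these counts are not independent of those genes. Under the first, narrower definition 50 genes had irregular values in HF-Sugar alone, of which 12 were higher and 0 lower, Ifng was marked in 1 library and Tas1r3 in none. How these values arose was not tested.

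Receptors and leukocyte genes followed among the genes with non-overlapping groups. Cd40, the receptor through which T cells activate B cells and macrophages, read 1.16, 1.69 and 1.88 RPKM in HF-Sugar and 0.605, 0.509 and 0.346 RPKM in NF-Sugar, a difference of 0.76 ± 0.12 (limma adjusted p = 0.231). Csf2rb, the shared beta chain of the receptors for GM-CSF, interleukin-3 and interleukin-5, read 2.39, 1.78 and 2.36 RPKM in HF-Sugar and 1.16, 0.925 and 1.06 RPKM in NF-Sugar, so that its HF-Sugar mean was 2.07 times that of NF-Sugar. Its difference was 0.59 ± 0.11 (limma adjusted p = 0.672). Ccr7, which guides dendritic cells and T cells to lymphoid tissue, read 4.78, 2.96 and 3.45 RPKM in HF-Sugar and 1.98, 1.68 and 2.22 RPKM in NF-Sugar. Gpr18, a receptor of lymphocytes, read 2.31, 2.2 and 3.1 RPKM in HF-Sugar and 1.12, 1.63 and 1.15 RPKM in NF-Sugar. Klhl6, a ubiquitin ligase adaptor of B cells, read 1.98, 1.61 and 1.91 RPKM in HF-Sugar and 0.968, 1.33 and 1.06 RPKM in NF-Sugar. The rest of the 12 genes taken in this direction were Prr3, Ifit3b, Nap1l5 and Pank4, with differences of 0.35 to 0.52. All 9 tested chemokine receptors of 14 listed were higher, by 0.11 to 0.62, with a median of 0.25, and none passed.

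Interferon-response genes were higher almost throughout. Of 36 listed, 34 were tested, 32 were higher and 2 lower, where 47.5% of all genes were higher, and the median difference was 0.35. None passed, 2 were higher at an unadjusted p under 0.05 (0.951% of all genes were), and 4 lay higher without overlap (2.9% of all genes did). Tgtp1, a guanosine triphosphatase that interferon gamma induces, read 1.67, 1.98 and 4.69 RPKM in HF-Sugar and 0.654, 0.629 and 1.53 RPKM in NF-Sugar, although it has a near-identical neighbour with which reads may be shared. Rsad2, the antiviral protein viperin, read 1.31, 1.13 and 1.33 RPKM in HF-Sugar and 0.757, 0.754 and 0.907 RPKM in NF-Sugar. Ifit3b, of the interferon-induced family that binds viral RNA but not on the list, read 2, 1.77 and 1.87 RPKM in HF-Sugar and 1.2, 0.768 and 0.95 RPKM in NF-Sugar. The list mean did overlap between groups, at 2.47 to 2.83 in HF-Sugar and 1.93 to 2.69 in NF-Sugar libraries, with NF-Sugar replicate 3 inside the HF-Sugar range. The median was 0.24 to 0.52 with 1 library left out, the highest without NF-Sugar replicate 3 and the lowest without NF-Sugar replicate 2.

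The promoters of Cxcl10, Ifit3b and Rsad2 are shown for the letters they share with known response elements, and are given from RefSeq (build GRCm38.p6, 250 bases before to 50 after the gene start, 5′ to 3′ on the gene's strand). Capitals mark 2 motifs searched on both strands: GAAA, any 2 bases and GAAA again, a core of the interferon-stimulated response element, and GGGA, any 4 bases and CC, a form of the NF-kappa-B site. These 3 promoters were chosen after their matches were seen. The windows of Il1b, Il18 and Tas1r3 held neither motif, and those of Ccl2, Cd40, Csf2rb and Ccr7 were not used here.
Cxcl10, chr5:92348840-92349139, minus strand: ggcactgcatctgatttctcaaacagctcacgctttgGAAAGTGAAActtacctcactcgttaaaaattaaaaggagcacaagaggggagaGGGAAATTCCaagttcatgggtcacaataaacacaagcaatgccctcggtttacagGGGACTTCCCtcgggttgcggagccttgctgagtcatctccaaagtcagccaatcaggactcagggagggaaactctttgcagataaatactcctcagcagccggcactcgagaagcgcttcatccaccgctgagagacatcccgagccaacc
Ifit3b, chr19:34607707-34608006, plus strand: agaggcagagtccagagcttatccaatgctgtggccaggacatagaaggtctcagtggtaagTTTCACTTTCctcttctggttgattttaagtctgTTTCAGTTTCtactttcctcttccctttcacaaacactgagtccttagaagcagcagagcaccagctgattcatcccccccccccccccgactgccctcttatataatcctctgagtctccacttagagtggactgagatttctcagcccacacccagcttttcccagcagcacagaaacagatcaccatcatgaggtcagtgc
Rsad2, chr12:26456403-26456702, minus strand: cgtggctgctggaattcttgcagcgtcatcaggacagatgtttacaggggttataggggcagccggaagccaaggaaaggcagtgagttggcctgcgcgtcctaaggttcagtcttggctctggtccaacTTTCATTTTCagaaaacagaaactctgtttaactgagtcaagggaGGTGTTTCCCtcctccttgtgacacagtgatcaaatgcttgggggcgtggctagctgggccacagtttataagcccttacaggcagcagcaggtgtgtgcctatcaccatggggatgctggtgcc
Cxcl10 held 1 match to the first motif and 2 places matching the second, Ifit3b held 2 matches to the first, and Rsad2 held 1 of each, with no overlap between the motifs. Over all 32851 promoters of the table, 3.44% held the first motif and 20.7% the second. Of 24 interferon-response genes with a promoter in the table, 14 (58.3%) held the first motif and 6 (25%) the second, where 3.99% and 22.9% of all genes in the table did. A match is a string of letters and was not tested as a binding site.

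Antigen presentation genes were higher on average, with overlap between the diets. All 11 MHC class II presentation genes were higher, by at least 0.24, with a median of 0.71, and 0 passed, 0 reached an unadjusted p under 0.05 and 0 lay apart without overlap. The list mean was 5.42, 5.18 and 5.53 in HF-Sugar and 4.28, 4.67 and 5.29 in NF-Sugar libraries, so NF-Sugar replicate 3 again reached the HF-Sugar range. The median was 1.14 without that library and 0.37 without NF-Sugar replicate 1. Ciita, the master switch of class II transcription, read 6.02, 3.85 and 9.84 RPKM in HF-Sugar and 2.13, 2.11 and 4.29 RPKM in NF-Sugar, a difference of 0.90 ± 0.45. For MHC class I presentation, 12 of 13 genes were higher with a median of 0.21, which was 0.41 without NF-Sugar replicate 3 and 0.15 without NF-Sugar replicate 2. Nlrc5, which switches on class I genes, read 1.76, 1.09 and 1.79 RPKM in HF-Sugar and 0.441, 0.542 and 1.36 RPKM in NF-Sugar.

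Markers of lymphocytes were higher along with these genes. In whole tissue, a difference in the number of cells of a type and one in RNA per cell cannot be told apart, in either direction. All 20 tested genes of 23 listed for T cells and intraepithelial lymphocytes were higher, with a median of 0.24 (0.12 to 0.29 with 1 library left out, the lowest without HF-Sugar replicate 3), 0 of them passed, and the summed level was 42.1 to 68.6 RPKM in HF-Sugar and 26.6 to 46.7 RPKM in NF-Sugar. Cd8a, the co-receptor of cytotoxic T cells, read 1.91, 1.8 and 2.35 RPKM in HF-Sugar and 1.38, 1.12 and 1.82 RPKM in NF-Sugar. These overlap slightly as deposited and do not after scaling. Of 22 tested genes of B cells and plasma cells, 21 were higher with a median of 0.27 (0.15 without HF-Sugar replicate 1 and 0.40 without HF-Sugar replicate 2), and the sum was 243.1 to 373.9 RPKM in HF-Sugar and 233.5 to 257.4 RPKM in NF-Sugar. Cd22, an inhibitory receptor of B cells, read 3.7, 2.43 and 3.22 RPKM in HF-Sugar and 2.72, 1.79 and 1.4 RPKM in NF-Sugar. Of 13 tested genes of macrophages and dendritic cells, 10 were higher with a median of 0.13 (0.00 without NF-Sugar replicate 1), and the sums overlapped (166.3 to 309.8 RPKM in HF-Sugar, 165.7 to 277.4 RPKM in NF-Sugar). All 4 tested genes of neutrophils and mast cells were lower, with a median of -0.22 that was -0.10 without NF-Sugar replicate 2. The other 8 genes of that list were too scarce to test, among them the neutrophil genes S100a9 (mean 0.292 RPKM in HF-Sugar and 0.190 RPKM in NF-Sugar), Csf3r (0.310 and 0.202 RPKM), S100a8 (0.0897 and 0.119 RPKM) and Ly6g (0 and 0.0149 RPKM), so these went both ways. The part of cell numbers in the cytokine, interferon and MHC values was not tested.

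**Figure D3:**
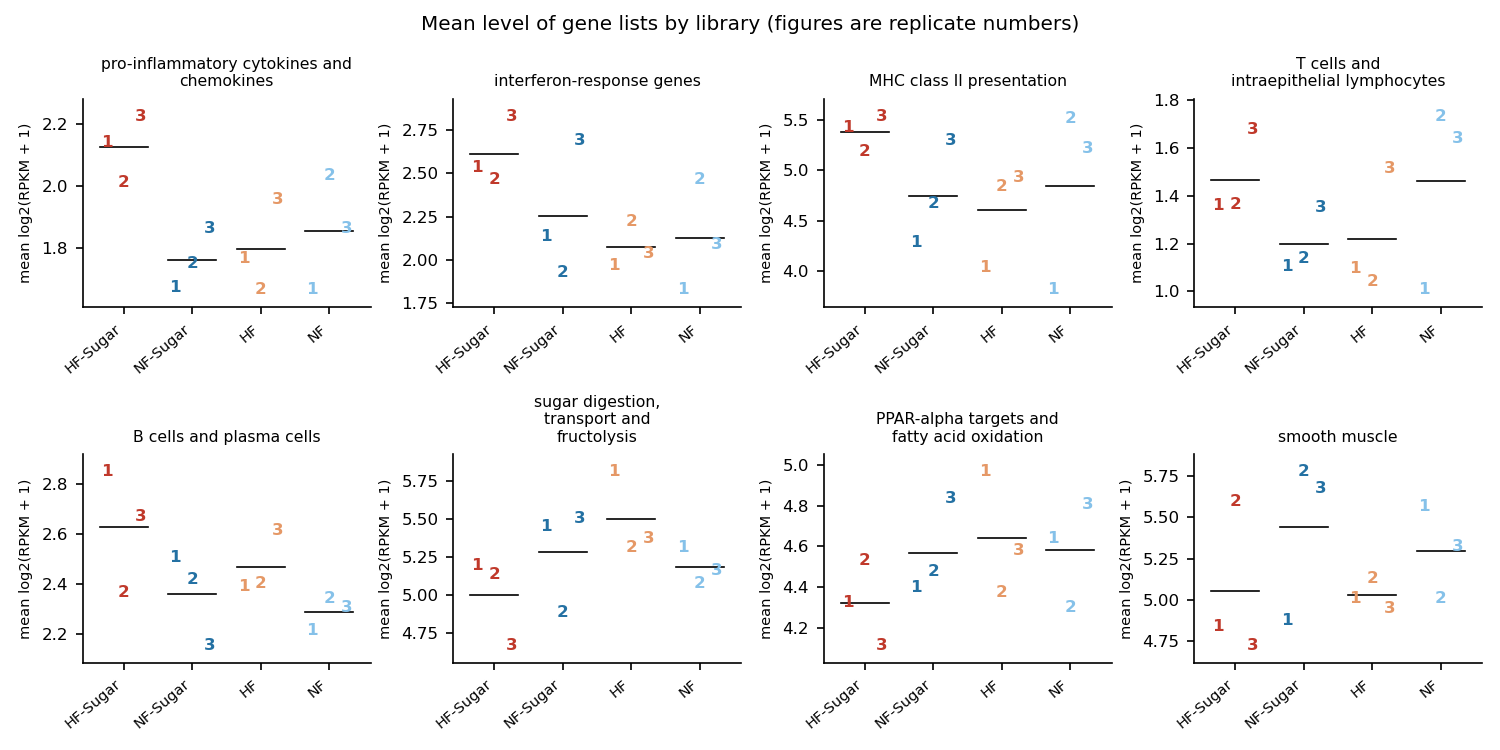
Mean log2(RPKM + 1) of 8 gene lists (vertical axes, which do not start at 0) by diet group, with each mouse shown by its replicate number and a line at the group's mean. NF-Sugar replicate 3 lies with the HF-Sugar libraries for interferon-response and MHC class II genes, at 2.69 and 5.29.

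Genes lower in HF-Sugar without overlap were of mixed kinds. None of the 12 taken had an irregular value, but 8 of them could not be checked. Isoc2b, an isochorismatase-domain protein (chr7:4844959-4870258, minus strand), read 4.85, 4.71 and 5.05 RPKM in HF-Sugar and 6.86, 6.89 and 6.3 RPKM in NF-Sugar, a difference of -0.43 ± 0.10 with a limma adjusted p of 1. Its values within each group were close, and the group means differed by a factor of 0.729. Nrn1, neuritin, read 1.51, 1.82 and 2.02 RPKM in HF-Sugar and 3.5, 3.53 and 2.41 RPKM in NF-Sugar. Mcat, the malonyl transferase of mitochondrial fatty acid synthesis, read 4.15, 4.4 and 4.44 RPKM in HF-Sugar and 4.69, 7.09 and 5.95 RPKM in NF-Sugar. Slc16a10, a transporter of aromatic amino acids, read 8.97, 7.43 and 4.42 RPKM in HF-Sugar and 8.7, 11.2 and 12.7 RPKM in NF-Sugar, which overlap as deposited and do not after scaling. The rest of the 12, apart from Il18, were Srbd1, Ccdc28b, Entpd4, Cmss1, Rtn4r, Elmo3 and Tmco6, with differences of -0.45 to -0.24.

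Genes that handle the diet itself were mostly lower in HF-Sugar, and none passed. Of 37 tested PPAR-alpha targets and fatty acid oxidation genes, 3 were higher and 34 lower, where 52.5% of all genes were lower, with a median of -0.19. None passed, 2 lay lower without overlap after scaling (2.83% of all genes did), and leaving out 1 library gave medians of -0.30 to -0.13. Ucp2, a mitochondrial carrier, read 38.7, 50 and 42.7 RPKM in HF-Sugar and 49.5, 52.3 and 54.1 RPKM in NF-Sugar. Acaa2, the last enzyme of the beta-oxidation cycle in mitochondria, read 57.1, 74.4 and 59.1 RPKM in HF-Sugar and 65.1, 84.6 and 91.2 RPKM in NF-Sugar. Of 22 genes that digest, carry or break down sugars, 19 were lower, with a median of -0.25 (-0.39 to -0.16 with 1 library left out). Slc2a5, the fructose transporter of the brush border, read 22.7, 16.9 and 11.9 RPKM in HF-Sugar and 29.8, 23 and 20 RPKM in NF-Sugar, a difference of -0.55 ± 0.27 with overlapping groups. Fbp1, a gluconeogenic enzyme, read 15.8, 20.4 and 12.3 RPKM in HF-Sugar and 22.6, 20.2 and 26.2 RPKM in NF-Sugar. For the absorption of fat and its packing into chylomicrons, 18 of 25 genes were lower, with a median of -0.14 (-0.38 to 0.03 with 1 library left out). Its lowest difference, -1.26, was also the lowest of the PPAR-alpha list, so the lists are not separate sets of genes. Apoc2, the activator of lipoprotein lipase, read 36.2, 14.5 and 12.1 RPKM in HF-Sugar and 34.8, 37.5 and 46.8 RPKM in NF-Sugar. Cholesterol synthesis genes were split, 18 higher and 8 lower with a median of 0.05 that was -0.04 without NF-Sugar replicate 1, and lipogenesis genes were 8 higher and 9 lower. Elovl6, which lengthens fatty acids, read 7.76, 8.48 and 8.79 RPKM in HF-Sugar and 5.36, 6.9 and 7.42 RPKM in NF-Sugar without overlap. In each group 1 value was marked irregular, but these marks rest on a length fitted to give whole reads and are uncertain.

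Among bile acid genes, Fgf15, the ileal hormone that restrains bile acid synthesis in the liver, had one of the widest differences at 1.63 ± 0.79. It read 58.5, 45.3 and 66.7 RPKM in HF-Sugar and 63, 2.98 and 21.1 RPKM in NF-Sugar. NF-Sugar replicates 2 and 3 were low, while NF-Sugar replicate 1 lay within the HF-Sugar range, and the limma adjusted p was 1. Mt2, a metal-binding metallothionein, read 51.5, 23.7 and 25 RPKM in HF-Sugar and 41.3, 89.3 and 82.1 RPKM in NF-Sugar, a difference of -1.13 ± 0.47 with overlap.

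No gene of the epithelial lineages passed. Of 16 epithelial antimicrobial genes, 14 were lower with a median of -0.36, which was -0.74 without NF-Sugar replicate 1 and 0.00 in size without NF-Sugar replicate 2. Reg3g, a lectin that kills Gram-positive bacteria, read 4146, 1656 and 1106 RPKM in HF-Sugar and 1926.5, 7338 and 4179.7 RPKM in NF-Sugar. Of 17 Paneth cell genes, 14 were lower with a median of -0.21, and the median was 0.20 without NF-Sugar replicate 2 and -0.68 without NF-Sugar replicate 3. Goblet cell, stem cell, tight junction and cell cycle genes had medians of -0.10 to 0.04, and in all but the goblet cell list the sign turned when 1 library was left out. Among taste transduction and tuft cell genes, 7 of 9 tested were higher with a median of 0.09. Tas1r3, the shared subunit of the sweet and umami receptors, read 0.956, 0.646 and 0.711 RPKM in HF-Sugar and 0.274, 0.282 and 0.373 RPKM in NF-Sugar, a difference of 0.41 ± 0.10 with a limma adjusted p of 1, and all 3 HF-Sugar values were irregular. Trpm5, the ion channel downstream of taste receptors, read 1.28, 1.48 and 1.61 RPKM in HF-Sugar and 1.37, 1.31 and 1.25 RPKM in NF-Sugar, with overlap. The partners Tas1r1 and Tas1r2 were too scarce to test, at no more than 0.102 RPKM. Gcg, the precursor of glucagon-like peptide 1, read 13.5, 17.3 and 25.1 RPKM in HF-Sugar and 10.3, 15.2 and 10.4 RPKM in NF-Sugar, with overlap. Lgr5, Pparg, Lpin1 and Mtor differed by -0.04 to 0.08, each less than its SE.

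Genes listed for smooth muscle and for adipocytes were lower on average. All 16 smooth muscle genes were lower with a median of -0.35, and all 10 tested adipocyte genes were lower with a median of -0.31. Neither list had a gene that passed or one without overlap. The smooth muscle sum was 838.3 to 1456 RPKM in HF-Sugar and 875.5 to 1911 RPKM in NF-Sugar. With 1 library left out the smooth muscle median was -0.66 to -0.18. The medians of the 2 lists were -0.94 and -1.02 without the 4 libraries that stand apart, 1 in each diet group, and the adipocyte median was 0.05 without NF-Sugar replicate 3. Adipoq read 0 RPKM in NF-Sugar replicate 1, where Cidec and Lipe read 18.2 and 11.7 RPKM. The adipocyte list thus need not stand for fat tissue. Of 17 tested fibroblast and matrix genes, 14 were lower with a median of -0.12 (-0.27 to -0.02 with 1 library left out). In that list 1 gene lay lower without overlap (2.83% of all genes did). Of 12 endothelial genes, 11 were higher with a median of 0.13, and 3 of them lay higher without overlap (2.9% of all genes did). Kdr, the main VEGF receptor, read 0.988, 0.708 and 1.21 RPKM in HF-Sugar and 0.652, 0.483 and 0.595 RPKM in NF-Sugar. How much the share of muscle in a sample contributed to the other lists was not tested.

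With plain water the same change of diet gave other values for many of these lists. HF against NF shares no library with HF-Sugar against NF-Sugar, and limma called 0 genes (0%) there too, with 352 (1.99%) higher and 310 (1.76%) lower at an unadjusted p under 0.05. Across the 17662 genes, the differences of the 2 comparisons had a Pearson r of 0.02, given as a description because genes are not independent. MHC class II genes had a median of 0.71 with sugar and -0.32 with water, T cell genes 0.24 and -0.26, and cholesterol synthesis genes 0.05 and -0.39. Sugar transport and fructolysis genes had -0.25 with sugar and 0.44 with water, while B cell genes (0.27 and 0.23), smooth muscle genes (-0.35 and -0.27) and adipocyte genes (-0.31 and -0.41) had like medians in both. The difference between the drinks was tested gene by gene as an interaction, for which 0 genes (0%) passed, 449 (2.54%) had an unadjusted p under 0.05 and limma-voom also called 0, and the smallest limma adjusted p was 0.586, for Il1b. Il1b read 0.263, 0.606 and 0.778 RPKM in HF and 0.484, 0.724 and 0.695 RPKM in NF. Its difference between the diets was thus -0.11 with water, and its interaction was 1.37. Slc2a5 read 33.5, 28.8 and 22.3 RPKM in HF and 14.9, 18.8 and 15.9 RPKM in NF without overlap (as did 4.68% of genes in that direction), 0.68 higher with water where it was 0.55 lower with sugar, and the interaction was -1.23 (limma adjusted p = 1). The list medians were not tested against each other.

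**Figure D4:**
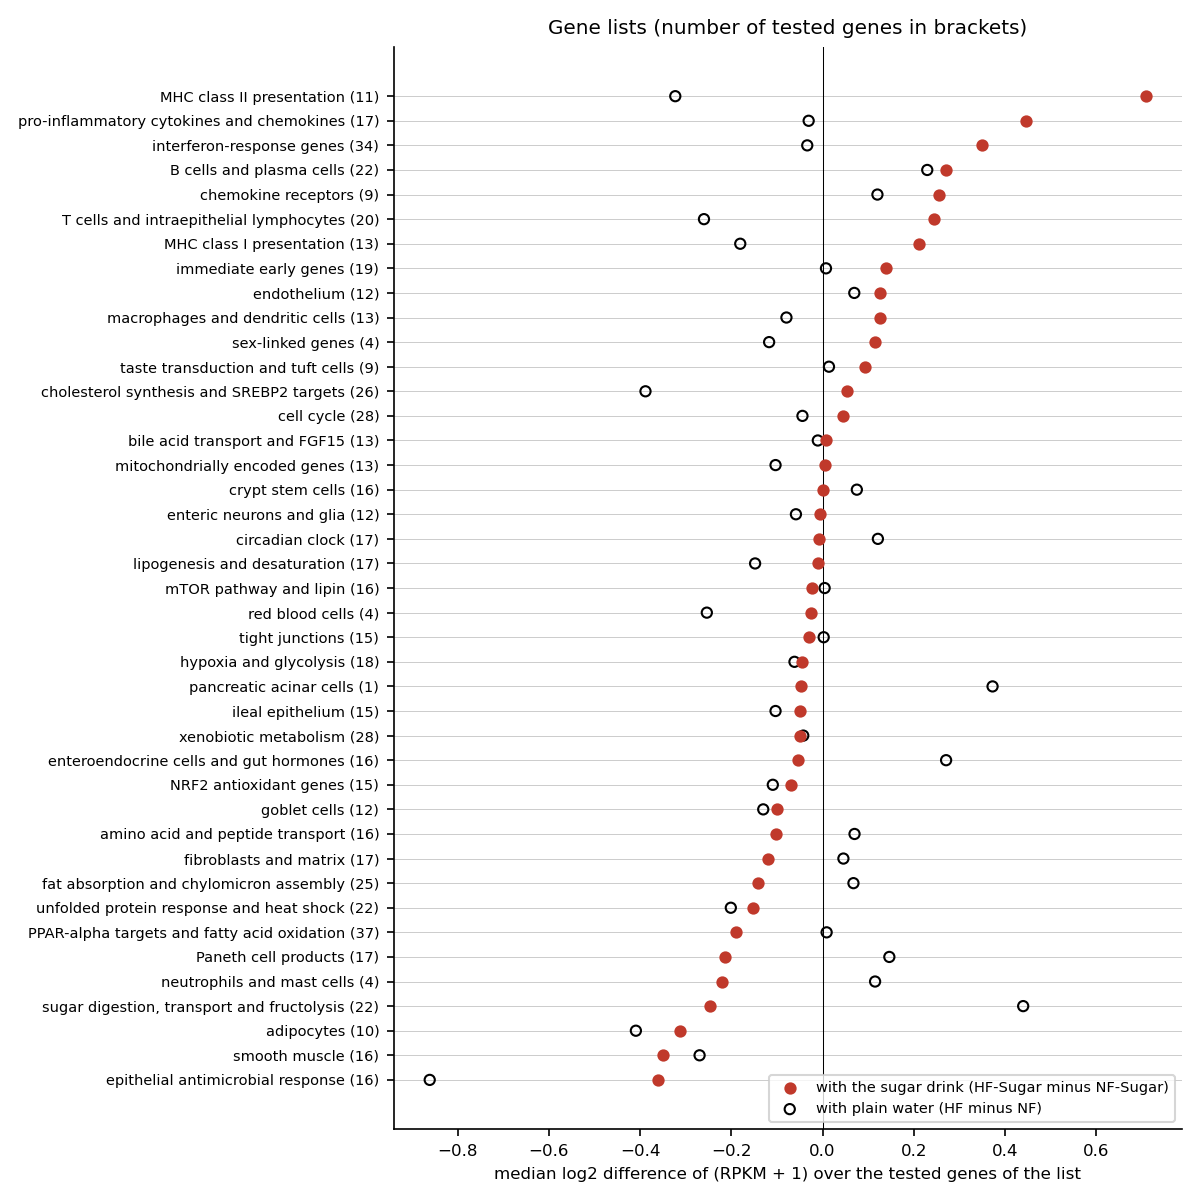
Median log2 difference of (RPKM + 1) over the tested genes of 41 lists (horizontal axis), with the sugar drink (filled, HF-Sugar minus NF-Sugar) and with plain water (open, HF minus NF). MHC class II presentation lies farthest to the right with sugar at 0.71 and at -0.32 with water, and sugar digestion, transport and fructolysis lies at -0.25 with sugar and 0.44 with water.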

How the data were processed

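RNA of 12 mouse ilea was sequenced, and the deposited tables give RPKM, the unit in which the authors gave their values. By their methods, reads were mapped to mm10 with STAR and quantified in Partek Flow against Ensembl transcripts. The main test was made for RPKM and not for counts. Of 44231 names, 26 were plain numbers that name no gene, and these (up to 0.135% of the RPKM in a library) were left out, and 40607 of the remaining 44205 genes were matched by symbol to GENCODE (build GRCm38). Low values are mostly multiples of 1 read, which gave the depth of each library, and 85.8% to 87.7% of them were whole within 0.03.

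RPKM was scaled by the trimmed mean of M values (30% and 5% trimmed), and log2(RPKM + 1) was fitted over the 4 groups of 3 with limma 3.58.1 in R 4.3.3 (trend on, 8 residual degrees of freedom), for genes that reached 0.5 RPKM in 3 or more libraries (17662), with p adjusted over all of them (Benjamini-Hochberg). Single genes also had an exact permutation test. The fit and the depth recovery were tested on simulated data.

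Genes were named if they were among the 12 in each direction with the smallest p, a mean of 1 RPKM in either group and no overlap (passing over predicted genes, pseudogenes and antigen receptor segments), among the 2 members of each of 41 lists with the smallest p, or among 15 genes of the study's text. The genes compared, the lists and these rules were chosen with earlier results of these data known. A gene that these rules name was left out of the named genes, and the text gives values for a part of the others. A value was called irregular if it was fractional by over 0.1 read (up to 300 reads) in a library while at least 5 and at least 70% of the other groups' libraries were whole, or had 7 digits. Reads were taken at the annotated exon length or, where this did not give whole reads, at the smallest length that did. The rule for irregular values marked 1233 genes. It was set after values were seen and replaced a narrower form that marked 670, of which 517 were shared, and both were run. The alternatives were other scalings, filters and pseudocounts, limma-voom, protein-coding genes alone, the 2 groups alone, a replicate block, the library cluster as covariate, leaving out the libraries that stand apart or the genes with irregular values, the study's thresholds (2-fold, adjusted p under 0.01), and single libraries left out. Figures used Python 3.11.15 and matplotlib 3.10.9.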

Additional observations from a re-analysis of the deposited data

How the results depend on the processing

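The count of called genes in HF-Sugar against NF-Sugar was 0 in 20 of 21 alternatives and 2 in the other, protein-coding genes only (12179 genes), where Il1b and Ifng passed in limma with adjusted p of 0.00692 and 0.0235. That fit adjusted p over fewer genes and estimated the spread from those genes alone. The part of each in the smaller adjusted p was not tested. Both genes hold irregular values in HF-Sugar in any fit. The interaction called 0 genes in every alternative run, including the replicate block. The replicate block, with all groups or with HF-Sugar and NF-Sugar alone (added after seeing the data), also called 0 in HF-Sugar against NF-Sugar, with 321 and 226 genes at an unadjusted p under 0.05. Same-numbered libraries did not go together: their deviations from the group means correlated at -0.44, -0.43 and -0.04. HF-Sugar replicate 2 and NF-Sugar replicate 1, which both stood apart, correlated at 0.48. Deviations of 3 libraries from their own mean are tied to each other, so these values cannot exclude pairing. The labels name no shared litter, cage or day. Leaving out each library in turn gave 0 called genes every time, while the number with an unadjusted p under 0.05 went as low as 192 without HF-Sugar replicate 3 and as high as 622 without HF-Sugar replicate 2, against 303 with all. It was 1050 without the libraries that stand apart, 507 with the library cluster as covariate, 549 without NF-Sugar replicate 1, 43 at a mean RPKM of at least 5 (7098 genes) and 1158 with no filter (44205 genes). Dropping genes with irregular values, under either definition, left 0 called genes, and the first definition was added after seeing the data.

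Of 107 named genes tested, 99 kept their direction in every alternative. This count is partly fixed in advance. Genes named because their groups do not overlap can hardly change direction when 1 library is left out. The replicate block and the library cluster are balanced over the groups and leave the difference of a gene unchanged, so neither tests its direction. The named genes that did change direction were close to 0 or decided by 1 library. Cela1 became 0.052 without the libraries that stand apart, and Mtor became 0.0085 in RPKM as deposited. With 1 library left out, Defa3 went between -0.78 and 0.10, Retnlb between -1.69 and 0.38, Cela1 between -0.18 and 0.065, Hba-a1 between -0.74 and 0.27, Hbb-bs between -0.16 and 0.48, Lgr5 between -0.025 and 0.20, Pparg between -0.11 and 0.050 and Mtor between -0.052 and 0.0063. With 3 mice per group and a median SE of 0.18, differences in single genes could be missed, also those of 2-fold. In simulated data with 200 changed genes, limma recovered 66% of differences of 1 and 98% of differences of 2 on the log2 scale. Those shares depend on the number of genes changed and on the simulated spread. Of 80 genes that differed by more than 1 on the log2 scale, 24 had an unadjusted limma p under 0.05 and 0 passed.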

Other observations

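Beside the lists described above, clock genes, hypoxia and glycolysis genes and mitochondrially encoded genes had medians of -0.01, -0.05 and 0.01 in HF-Sugar minus NF-Sugar, each of which changed sign with 1 library left out. Of 22 unfolded protein response and heat shock genes, 19 were lower with a median of -0.15. Without HF-Sugar replicate 3 the median was 0.04 with 12 higher, and without NF-Sugar replicate 3 it was 0.05 with 13 higher. Atf3, a stress-induced transcription factor, read 19.1, 6.19 and 12.9 RPKM in HF-Sugar and 19, 15.5 and 17.4 RPKM in NF-Sugar. It had the lowest difference, -0.58, of both this list and the immediate early genes. Of 19 immediate early genes, 14 were higher with a median of 0.14, but without HF-Sugar replicate 1 only 7 were higher and the median was -0.06. Egr1, which responds within minutes to growth factors and handling, read 20.8, 3.11 and 15.1 RPKM in HF-Sugar and 3.05, 3.85 and 5.14 RPKM in NF-Sugar, and the 2 high values were from HF-Sugar replicates 1 and 3. Ankrd37, a hypoxia-induced gene, read 3.91, 3.29 and 2.98 RPKM in HF-Sugar and 2.07, 1.45 and 2.28 RPKM in NF-Sugar, without overlap, a difference of 0.55 ± 0.17 with a limma adjusted p of 1.

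Retnlb, a goblet cell product that responds to bacteria and worms, read 1.28, 1.37 and 3.36 RPKM in HF-Sugar and 1.15, 36.1 and 1.13 RPKM in NF-Sugar, and the same library, NF-Sugar replicate 2, held the highest Reg3g value of the 6.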
